A study of Mus musculus with 9 samples.

Results

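A set of 9 genes was followed that set the direction of carbon flow between glucose and pyruvate in the liver, namely G6pc, Pck1, Fbp1, Pcx, Pklr, Slc2a2, Foxo1, Irs1 and Irs2. They were chosen by name, as the entries of the gene table whose symbol equals 1 of these 9 names. The name matched 13 of the 52151 entries of the table. Of these, 9 hold the known transcripts, 1 for each gene, and are used below, and the other 4 are a single assembled transcript each (1 named Fbp1, 1 Foxo1, 1 Irs1 and 1 Pck1), at 0 in most libraries and at most 3.29 FPKM. None of the 9 entries holds transcripts of another gene. In GENCODE M21 (build GRCm38) all are protein-coding genes, G6pc at chr11:101367561-101377903 (plus strand), Pck1 at chr2:173153048-173159273 (plus strand), Fbp1 at chr13:62864753-62888282 (minus strand), Pcx at chr19:4510472-4621752 (plus strand), Pklr at chr3:89136142-89146784 (plus strand), Slc2a2 at chr3:28697903-28731359 (plus strand), Foxo1 at chr3:52268336-52353221 (plus strand), Irs1 at chr1:82233101-82291416 (minus strand) and Irs2 at chr8:10984681-11008458 (minus strand).

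The libraries came from whole liver of mice 8 weeks old, labelled C57BL/6, with the running numbers C57BL/7, C57BL/8 and C57BL/9 on the MNA animals, and described in the methods as male. There were 3 pair-fed mice on an isocaloric control liquid diet (PF), 3 mice on an alcohol-containing liquid diet of the Lieber-DeCarli type (AF), and 3 mice on the alcohol diet that were also injected with MNA at 50 mg/kg (AF with MNA), all fed for 5 weeks. MNA is not spelled out in the labels, and there was no group that received MNA without alcohol. Levels of genes and lncRNAs below are in FPKM, the fragments of a transcript scaled to its length and to the fragments of the library, from 1 library per replicate. In whole tissue, fewer cells of a type and less RNA per cell cannot be told apart.

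As background, the fasted liver makes glucose from lactate, glycerol and amino acids. Pyruvate carboxylase (Pcx) and cytosolic phosphoenolpyruvate carboxykinase (Pck1) carry pyruvate to phosphoenolpyruvate, fructose bisphosphatase (Fbp1) acts at the middle of the route, the glucose phosphatase subunit G6pc releases free glucose, and the transporter GLUT2 (Slc2a2) moves it across the hepatocyte membrane. Liver pyruvate kinase (Pklr) works in the opposite direction, and its gene is known to respond to glucose through ChREBP. After a meal, insulin acts through the adaptors Irs1 and Irs2 and the kinase AKT to keep the forkhead factor Foxo1 out of the nucleus. In fasting Foxo1 is active on G6pc, Pck1, Irs2 and Igfbp1, the gene of a secreted binding protein of insulin-like growth factors.

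The hepatocyte markers fixed for the check of the tissue (Alb, Apoa1, Ttr, Tat, Cps1 and Serpina1c) summed to between 16578 and 23594 FPKM over the 9 libraries, with 6 of 6 measured. The 3 adipocyte, the 3 skeletal muscle and the 1 kidney marker with an entry stayed under 0.5 FPKM in every library, and so did 4 of 5 lymphocyte markers. Markers of sinusoidal endothelium ranged in sum from 19.7 to 24.3 FPKM (PF), 24.9 to 36.2 (AF) and 30.4 to 33.8 (AF with MNA), and markers of Kupffer cells and macrophages from 25.9 to 30.5, 16.2 to 30.8 and 22.0 to 32.1. Stellate cell markers summed to between 26.0 and 39.8 FPKM and red cell markers to between 285 and 650. Cholangiocyte markers ranged in sum from 3.27 to 4.31 FPKM (PF), 4.86 to 9.12 (AF) and 3.34 to 6.33 (AF with MNA). Pancreatic markers ranged from 5.47 to 6.91 (PF), 2.35 to 4.29 (AF) and 3.06 to 7.18 (AF with MNA). The part of these cell types in the values below was not tested. The tables give no reads for genes, and each FPKM of an lncRNA corresponded to 5.84 to 8.30 reads over every base, deepest in AF with MNA replicate 1 and shallowest in AF with MNA replicate 3. AF replicate 3 and AF with MNA replicate 1 held more signal in transcripts within introns (a summed FPKM of 9433 and 8934) than the other libraries (between 2477 and 4937).

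The 9 genes covered a wide range of levels. In PF livers Pck1 stood highest with a mean of 604 FPKM, followed by Fbp1 (194), Pklr (96.0), Slc2a2 (93.8), G6pc (54.8), Pcx (14.7), Foxo1 (5.35), Irs2 (4.85) and Irs1 (3.37). The ranges of neighbours in this order did not touch, except for Pklr and Slc2a2, for Foxo1 and Irs2, and for Irs2 and Irs1. Pck1 was also highest and Irs1 lowest in AF and in AF with MNA. In AF livers the neighbours Fbp1, G6pc, Slc2a2 and Pklr overlapped one after another.

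No member passed an adjusted p of 0.05 (limma, Benjamini-Hochberg over all genes tested) in any of the 3 comparisons. For AF against PF this was 0 of 9 members, where 0.326% of 12268 genes passed. For AF with MNA against AF it was 0 of 9, where 0.0491% of 12214 genes passed, and for AF with MNA against PF 0 of 9, where 0.432% of 12276 passed. The threshold of the methods, an unadjusted p under 0.05 with a ratio of group means beyond 2-fold (log2 beyond 1), was also met by 0 of 9 members in each comparison, against a background of 4.30%, 1.98% and 3.89% of genes in that order. Both counts stayed at 0 when any single library was left out. At an unadjusted p under 0.05 alone, 0, 1 and 0 of 9 members passed, the 1 being Fbp1, where 11.7%, 5.22% and 14.5% of all genes tested did. That count did not hold when single libraries were left out, as Fbp1 did not pass without AF replicate 1, AF replicate 2 or AF with MNA replicate 2. Conversely Irs1 and Irs2 passed in AF against PF and Irs1 beside Fbp1 in AF with MNA against AF when AF replicate 3 was left out, and in AF with MNA against PF Fbp1 passed without PF replicate 2 and Slc2a2 without AF with MNA replicate 1. With no intensity trend and with a replicate block, Pck1 passed beside Fbp1 in AF with MNA against AF. The median log2 fold change of the 9 members was -0.06, -0.04 and -0.09, beside -0.03, 0.01 and -0.02 over all genes tested. With so few libraries these tests leave wide intervals, and a member that did not pass is not shown to be equal in both groups.

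**Figure D1:**
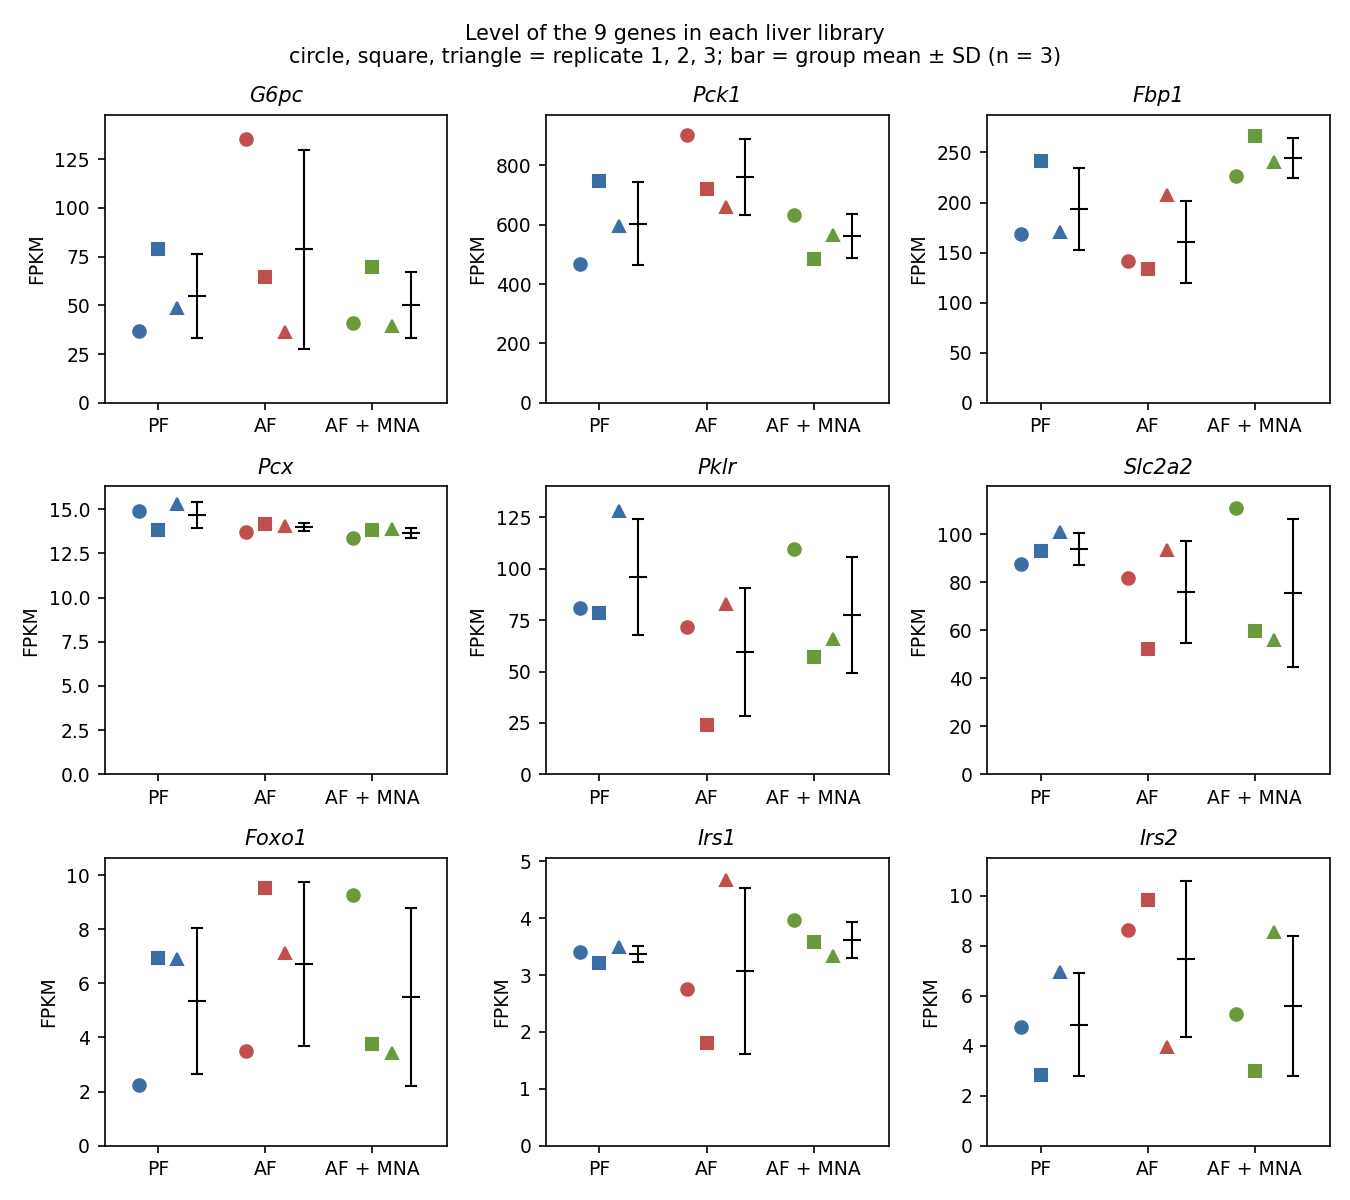
FPKM of each of the 9 genes (vertical axes, linear, starting at 0) in the 3 PF, 3 AF and 3 AF with MNA livers, with each library as a point and the group mean ± SD as a bar. The groups overlap for every gene except Fbp1 and Pck1 in AF with MNA against AF, and Pcx varies least between libraries.

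The cytosolic carboxykinase Pck1 was the most abundant member. Its level, with replicates 1 to 3 of each group in order as in all such lists below, was 467, 748 and 596 FPKM (PF), 901, 721 and 658 (AF) and 633, 484 and 566 (AF with MNA). The AF livers thus held the single highest value, while PF and AF overlapped. The mean was 760 ± 126 FPKM in AF and 604 ± 141 in PF (SD, n = 3), a log2 fold change of 0.35 (SE 0.23, 95% interval -0.21 to 0.90, adjusted p = 0.618 in limma), and it was 0.17 without PF replicate 1 and 0.51 without PF replicate 2. In AF with MNA it was 561 ± 74.7 FPKM, and all 3 of these livers lay below all 3 AF livers. That difference was -0.43 on the log2 scale (SE 0.20, interval -0.90 to 0.04, adjusted p = 0.940).

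Fructose bisphosphatase showed the clearest separation among the members. Fbp1 measured 169, 241 and 171 FPKM (PF), 142, 133 and 208 (AF) and 227, 267 and 241 (AF with MNA). Every AF with MNA liver was above every AF liver, by 1.52-fold in the means (245 ± 20.2 against 161 ± 40.8 FPKM, SD, n = 3). The log2 fold change was 0.63 (SE 0.21, interval 0.13 to 1.12), with an unadjusted p of 0.0205 and an adjusted p of 0.940 in limma. Of the genes tested, 2.01% had a smaller p. With AF replicate 3 left out the difference was 0.82 (adjusted p = 0.365), and without AF replicate 2 it was 0.51 (adjusted p = 0.771). Against PF the AF with MNA livers differed by 0.35 (SE 0.18, adjusted p = 0.444), and AF differed from PF by -0.27 (SE 0.24, adjusted p = 0.701), both with overlapping groups. The latter was -0.11 without PF replicate 2 and -0.47 without AF replicate 3.

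Pck1 and Fbp1 were the 2 of 9 members whose groups did not overlap in AF with MNA against AF, with opposite directions, where 10.1% of all genes tested did not overlap. In AF against PF this held for 0 of 9 members (18.3% of genes), and in AF with MNA against PF for 0 of 9 (21.4% of genes). The comparisons share groups, so that the AF livers enter both the first and the second.

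G6pc, the last step before glucose leaves the cell, was carried by single livers. It measured 37.0, 78.7 and 48.7 FPKM (PF), 135, 64.7 and 36.3 (AF) and 41.0, 69.7 and 39.5 (AF with MNA). One AF liver held the highest value of all 9 and another the lowest. The AF mean of 78.8 ± 51.0 FPKM stood beside 54.8 ± 21.5 in PF and 50.1 ± 17.0 in AF with MNA (SD, n = 3). The log2 fold change of AF against PF was 0.38 (SE 0.50, interval -0.82 to 1.59, adjusted p = 0.813), and without AF replicate 1 it was -0.10.

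Pyruvate carboxylase, which feeds the route in mitochondria, hardly varied. Pcx measured 14.9, 13.8 and 15.3 FPKM (PF), 13.7, 14.2 and 14.1 (AF) and 13.4, 13.8 and 13.9 (AF with MNA). The coefficient of variation within groups was 3.35%, and 0.19% of the 7233 genes that averaged 2 FPKM or more and were never at 0 had a smaller one (median 17.8%). The 95% intervals of its log2 fold change were also the narrowest among the members, at -0.33 to 0.20 for AF against PF, -0.28 to 0.22 for AF with MNA against AF and -0.31 to 0.13 for AF with MNA against PF. At the other end of the same scale stood Foxo1 with 52.2%, G6pc with 47.9%, Irs2 with 45.0% and Pklr with 40.5%, where between 89.2% and 94.9% of genes varied less. Pck1 (18.2%) and Fbp1 (19.7%) lay near the median, and Irs1 (28.0%) and Slc2a2 (28.9%) above it.

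Pklr, the glycolytic enzyme of the set, measured 81.0, 78.6 and 128 FPKM (PF), 71.5, 24.0 and 82.8 (AF) and 110, 57.2 and 65.7 (AF with MNA). AF replicate 2 was far below the other 8 livers. The mean was 59.4 ± 31.2 FPKM in AF and 96.0 ± 28.0 in PF (SD, n = 3). AF differed from PF by -0.82 on the log2 scale (SE 0.48, interval -1.97 to 0.32, adjusted p = 0.568), and without AF replicate 2 it was -0.28 (adjusted p = 0.719). The difference of AF with MNA from AF was 0.50 (SE 0.50, adjusted p = 0.980), and by -0.046 when AF replicate 2 was left out.

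Slc2a2, the glucose transporter of the hepatocyte membrane, was held tightly in PF at 87.5, 93.1 and 101 FPKM. Values of 81.8, 52.1 and 93.4 (AF) and 111, 59.7 and 55.7 (AF with MNA) followed, so that 1 liver of AF and 2 of AF with MNA fell below 60. The log2 fold change was -0.34 for AF against PF (SE 0.23, interval -0.90 to 0.21) and -0.38 for AF with MNA against PF (SE 0.27, interval -1.04 to 0.28), with adjusted p of 0.618 and 0.584 in limma. Leaving out AF replicate 3 made the former -0.51, and leaving out AF replicate 2 made it -0.098. The latter ranged from -0.69 without AF with MNA replicate 1 (adjusted p = 0.143) to -0.20 without AF with MNA replicate 3 (adjusted p = 0.825).

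Across the 9 livers Pklr and Slc2a2 varied together. On log2(FPKM + 1), Pearson's r was 0.84 and Spearman's rho 0.95, with exact permutation p adjusted over all 36 pairs of members of 0.0062 and 0.013. Without the 2 livers farthest from the median of Pklr r was 0.90, and with the group means removed it was 0.88. In each group the liver highest in both genes (PF replicate 3, AF replicate 3 and AF with MNA replicate 1) was also the one with the most signal in intron transcripts (4937, 9433 and 8934 FPKM in sum), and the part of this in the relation was not tested. It was the only 1 of the 36 pairs to pass, and the pairs were computed after the values were seen. Pairs at an unadjusted p under 0.05 for r were Pklr with Irs1 (r = 0.78, adjusted p = 0.40), Fbp1 with Irs2 (r = -0.69, adjusted p = 0.40) and Fbp1 with Irs1 (r = 0.65, adjusted p = 0.40). Spearman's rho was 0.60, -0.73 and 0.45 (adjusted exact permutation p of 0.75, 0.56 and 0.75). Without the 2 livers farthest from the median of the first gene, r was 0.39, -0.37 and -0.05. With the group means removed over all 9 livers it was 0.80, -0.82 and 0.62. Leaving out the farthest livers also narrows the range of that gene, so this check cannot tell whether the relations rest on them. G6pc and Pck1 gave no such pair, neither with each other nor with Foxo1. For G6pc with Pck1 r was 0.66 (exact permutation p = 0.0561, adjusted p = 0.40). It was 0.04 without the 2 farthest livers and 0.60 with the group means removed.

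**Figure D2:**
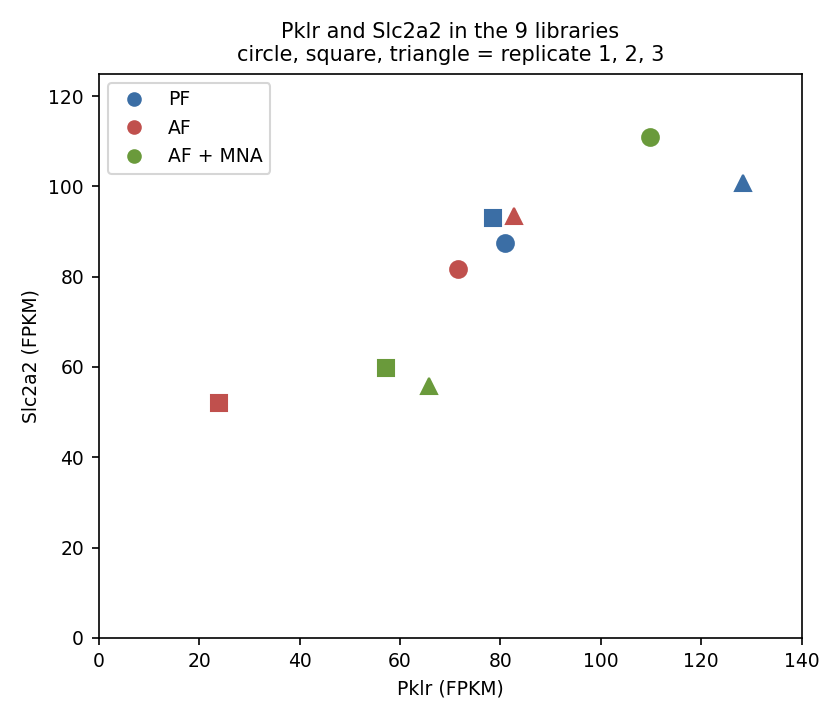
Slc2a2 (vertical axis, FPKM) against Pklr (horizontal axis, FPKM), 1 point per liver, coloured by group. The 3 livers with Slc2a2 under 60 FPKM also have the 3 lowest values of Pklr, and they belong to AF and AF with MNA.

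Foxo1, the forkhead factor through which insulin restrains gluconeogenic genes, measured 2.23, 6.92 and 6.91 FPKM (PF), 3.51, 9.54 and 7.13 (AF) and 9.27, 3.75 and 3.42 (AF with MNA). Each group held both low and high livers, and all 3 groups overlapped. The log2 fold change was 0.31 for AF against PF (SE 0.45, interval -0.77 to 1.39), -0.28 for AF with MNA against AF (SE 0.43) and 0.03 for AF with MNA against PF (SE 0.47), with adjusted p between 0.834 and 0.989. With 1 library left out, the first ranged from -0.12 to 0.66 and the second from -0.67 to -0.014. Gm38034, a transcript of 1 exon within the Foxo1 gene on the same strand, was listed at 0 in 7 libraries and at 5.70 and 9.66 FPKM in AF with MNA replicates 2 and 3, in which Foxo1 was low. Foxo1 was as low in PF replicate 1 and AF replicate 1, where Gm38034 was at 0. Whether reads were assigned to one in place of the other was not tested.

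The adaptors of the insulin receptor differed in how they varied. Irs1 was nearly constant in PF (3.40, 3.21 and 3.50 FPKM) and in AF with MNA (3.96, 3.58 and 3.33), and spread from 1.80 to 4.67 in AF (2.75, 1.80 and 4.67). Irs2 measured 4.76, 2.82 and 6.96 FPKM (PF), 8.63, 9.84 and 3.93 (AF) and 5.28, 2.97 and 8.55 (AF with MNA). In AF the order of the livers was reversed between both genes, as the liver with the lowest Irs1 held the highest Irs2. The log2 fold change of AF against PF was -0.16 for Irs1 (SE 0.25, adjusted p = 0.844) and 0.52 for Irs2 (SE 0.38, interval -0.39 to 1.43, adjusted p = 0.646). The Irs1 difference became -0.43 once AF replicate 3 was left out (adjusted p = 0.332) and 0.078 once AF replicate 2 was. Irs2 ranged from 0.24 (without PF replicate 2) to 0.87 (without AF replicate 3, adjusted p = 0.327), and was 0.30 without AF replicate 2.

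As a ratio within each library, Irs2 to Irs1 was 1.40, 0.88 and 1.99 (PF), 3.14, 5.47 and 0.84 (AF) and 1.33, 0.83 and 2.57 (AF with MNA). AF replicates 1 and 2 lay above every PF liver and AF replicate 3 below all of them. The mean log2 ratio was 1.28 ± 1.39 in AF, 0.43 ± 0.59 in PF and 0.50 ± 0.82 in AF with MNA (SD, n = 3), and the difference of 0.85 between AF and PF had an exact permutation p of 0.50 (two-sided). That difference was 0.27 without AF replicate 2 and 1.62 without AF replicate 3. With 3 libraries against 3 the exact test cannot go below 0.1. The other family member with an entry, Irs3, stayed at or below 0.17 FPKM. For Irs4 no named entry with a known transcript was found, so that its level is not given.

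**Figure D3:**
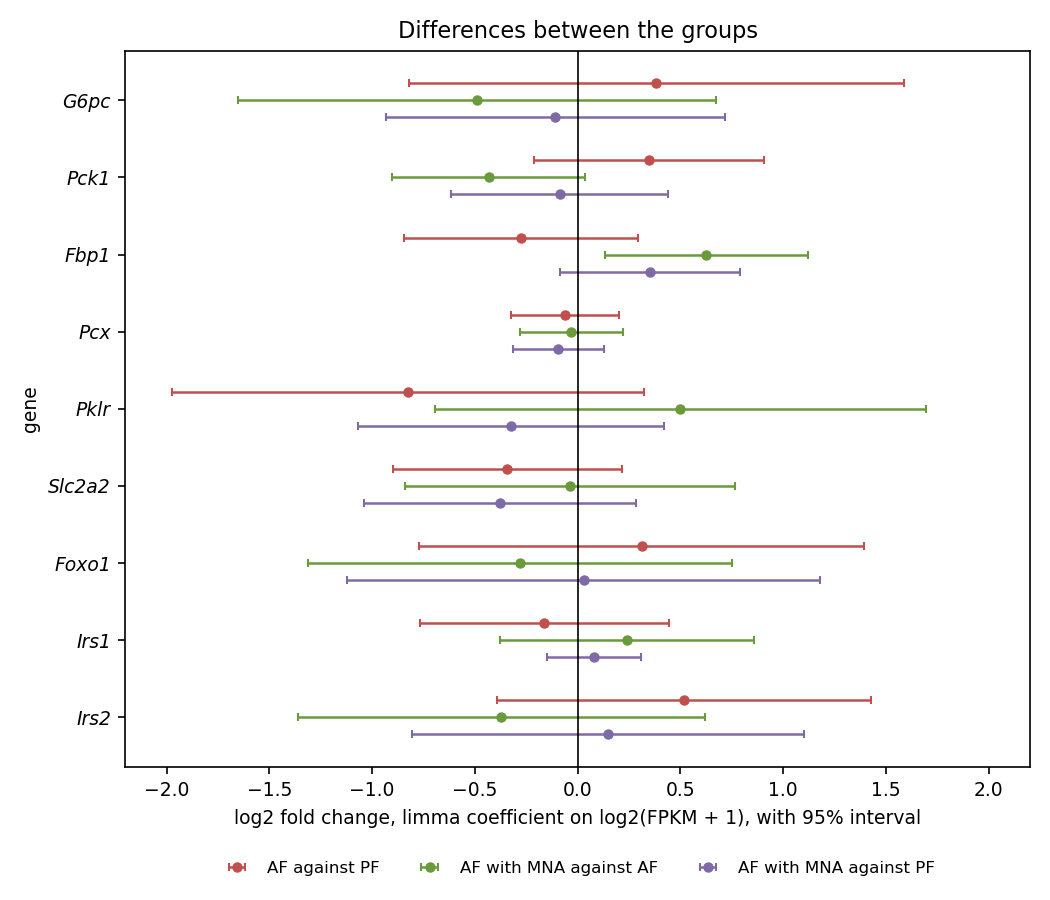
Log2 fold change (limma coefficient on log2(FPKM + 1), horizontal axis) with its 95% interval for each gene and comparison, 3 libraries per group. Only the interval of Fbp1 in AF with MNA against AF, 0.13 to 1.12, leaves out 0, and its adjusted p was 0.940.

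The promoters were read from RefSeq (build GRCm38.p6) as the 250 bases before each start, 11 windows for the 9 genes, since Pcx and Pklr have more than 1. Motifs were searched on both strands, and they overlap in places. The forkhead motif TGTTTAC was in 0 of the 11 windows (3.17% of 32851 windows of all genes), the forkhead-like TGTTTTG in 3 (5.56%), the cAMP half-site TGACG in 2 (17.8%) and the E-box CACGTG in 3 (6.02%). These matches describe letters in a window and not binding. Stretches of 30 bases are shown for the windows with a forkhead-like or cAMP motif, 5′ to 3′ on the strand of the gene, with the matched letters in capitals (CGTCA is TGACG read from the other strand). In the stretch of G6pc the motif begins at position -174 from the start, and in that of Pck1 at position -90.
G6pc, chr11:101367531-101367560, plus strand: ttttgtgtgccTGTTTTGctattttacgta
Pck1, chr2:173152971-173153000, plus strand: gcctgccccttaCGTCAgaggcgagcctcc

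The genes of the insulin receptor adaptors shared an arrangement that was noticed after the sequences were read. In Irs1 the E-box overlaps the forkhead-like motif (and the cAMP half-site), and in Irs2 the E-box and the forkhead-like motif are 1 base apart. Of 32851 windows, 97 (0.295%) hold both motifs and 7 (0.021%) hold them overlapping or at most 1 base apart, and 3 of these 7 belong to Irs1, Irs2 and Irs4. The others belong to 1700019P21Rik, Klf11, Pcbp1 and Pyroxd1. In the stretches below, with the same marks, the motifs span positions -118 to -105 in Irs1, -44 to -31 in Irs2 and -154 to -141 in Irs4. The starts are those of RefSeq. In GENCODE M21 Irs1 and Irs2 begin downstream of their RefSeq starts, and G6pc and Pck1 begin upstream of theirs.
Irs1, chr1:82291536-82291565, minus strand: agaggctcCGTCACGTGTTTTGctcctctg
Irs2, chr8:11008952-11008981, minus strand: cgcagagtCACGTGtTGTTTTGctcttagt
Irs4, chrX:141725350-141725379, minus strand: gcgacggtCACGTGtTGTTTTGcccactgc
In these livers, as given above, the ratio of Irs2 to Irs1 ran from 0.83 to 5.47.

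A total of 4 known lncRNA transcripts overlap members, 3 of them on the opposite strand. The 2 that passed the filter in every comparison, Gm20402 and 1700112D23Rik, did not pass an adjusted p of 0.05 in any of the 3. Of all lncRNA transcripts tested, 0.0164%, 0.00% and 0.00% passed. Gm20402 lies against the first part of Foxo1 (chr3:52268435-52269435, minus strand, 2 exons). It measured 3.98, 5.61 and 6.03 FPKM (PF), 8.64, 12.0 and 8.03 (AF) and 9.21, 7.12 and 8.36 (AF with MNA). All 6 alcohol-fed livers were above all 3 PF livers, with a log2 fold change of 0.77 (SE 0.23, interval 0.25 to 1.28, adjusted p = 0.598) for AF and 0.58 (SE 0.19, interval 0.16 to 1.01, adjusted p = 0.593) for AF with MNA. Foxo1 itself overlapped between these groups.

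1700112D23Rik runs against Slc2a2 (3 exons, minus strand) and measured 3.00, 4.25 and 5.25 FPKM (PF), 4.10, 0.63 and 2.90 (AF) and 0.90, 1.70 and 0.95 (AF with MNA). The 3 AF with MNA livers were below all PF livers, by -1.24 on the log2 scale (SE 0.25, interval -1.81 to -0.67, adjusted p = 0.593). AF against PF gave -0.67 (SE 0.40), and AF replicate 2, which was low in Slc2a2, was also low here. That difference was -0.19 without AF replicate 2 and -1.01 without AF replicate 1. Of the 2 transcripts that passed the filter in every comparison, Gm20402 and 1700112D23Rik, the groups did not overlap for 1 in AF against PF, 0 in AF with MNA against AF and 2 in AF with MNA against PF, beside 6.23%, 4.84% and 6.20% of all lncRNA transcripts tested. The RNA from opposite strands was made to be told apart by the library kit, but whether the counting used strand is not given in the sources used here. 9530052E02Rik, against Irs2, stayed at or below 0.33 FPKM. It and Gm38034 passed the filter only in comparisons with AF with MNA, the group with the highest mean of both, and are left out of these counts.

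**Figure D4:**
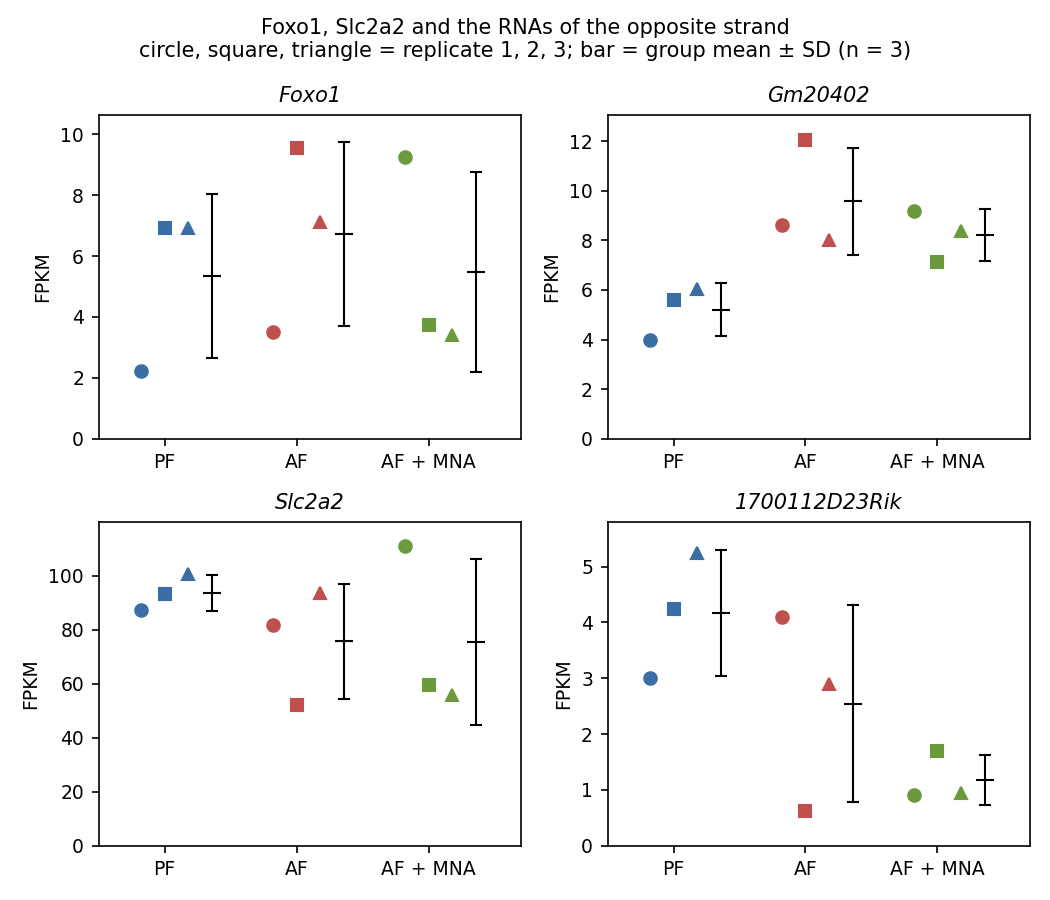
FPKM (vertical axes) of Foxo1, Slc2a2 and the lncRNAs of the opposite strand at each gene, with each liver as a point and the group mean ± SD as a bar. Gm20402 is between 3.98 and 6.03 in PF and between 7.12 and 12.0 in the other livers, while 1700112D23Rik is at most 1.70 in AF with MNA and at least 3.00 in PF.

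Circular RNAs of the members were rare. Members gave 6 of the 4486 circRNAs measured, 2 from Fbp1 and 1 each from Foxo1, G6pc, Pck1 and Slc2a2. Their back-splice junction reads summed to 2, 0 and 1 (PF), 0, 3 and 0 (AF) and 9, 8 and 8 (AF with MNA), of between 1588 and 2545 junction reads of all circRNAs in a library. Per 1000 junction reads this was 4.03 ± 0.87 in AF with MNA, 0.55 ± 0.95 in AF and 0.51 ± 0.51 in PF (SD, n = 3). These sums are given as a description with no test, since circRNAs such as that of G6pc and 1 of Fbp1 were listed through reads in AF with MNA alone. The circRNA of G6pc (3 exons) had 3, 2 and 3 reads in AF with MNA and 0 in all 6 other livers. A count of 0 allows up to 3 reads in a library, so that no single library shows a difference at this depth. It reached the 8 reads asked for in the background below through AF with MNA alone, the group where it was high, so that nothing is read from its lack of overlap. Among circRNAs with at least 8 reads, 7.39% did not overlap between AF with MNA and AF, and 7.78% between AF with MNA and PF. The linear G6pc values of these 3 livers, 39.5 to 69.7 FPKM, lay within the range of the other groups.

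The members were then set beside the other genes of the pathway. No gene of these lists passed an adjusted p of 0.05 in AF against PF. Of the 14 tested genes that encode other gluconeogenic enzymes and carriers, 10 were higher and 4 lower in AF (median log2 fold change 0.11, beside -0.03 over all genes), and 3 had an unadjusted p under 0.05 (11.7% of all genes tested). These were Gpd1, the cytosolic glycerol phosphate dehydrogenase, at 82.5, 57.2 and 46.9 FPKM in PF and 34.6, 34.2 and 33.9 in AF (log2 fold change -0.81, SE 0.21, adjusted p = 0.254), Gpt2, an alanine aminotransferase (0.49, adjusted p = 0.293), and Sds, serine dehydratase. Sds measured 9.01, 16.7 and 21.04 FPKM (PF), 32.8, 42.2 and 25.0 (AF) and 22.0, 18.6 and 18.3 (AF with MNA). AF exceeded PF by 1.09 (SE 0.33, adjusted p = 0.307), past the threshold of the methods, and AF with MNA stood lower than AF by 0.71 (log2 fold change -0.71, SE 0.21, adjusted p = 0.940), with all 3 livers below the AF livers.

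Among 20 tested glycolytic genes, 12 were higher and 8 lower in AF than in PF (median 0.09), and 1 had an unadjusted p under 0.05, Aldoa (0.33, SE 0.12, adjusted p = 0.370). Ldha, a lactate dehydrogenase subunit, gave -0.75 (adjusted p = 0.473). In glycogen metabolism 7 of 11 tested genes were higher (median 0.11). Of these, Pgm1, a phosphoglucomutase, measured 1.28, 1.02 and 0.88 FPKM (PF), 1.9, 1.82 and 1.76 (AF) and 1.3, 1.26 and 1.09 (AF with MNA) (AF against PF 0.46, SE 0.12, adjusted p = 0.243; AF with MNA against AF -0.35, adjusted p = 0.940). Gys2, the liver glycogen synthase, and Pgm2 gave -0.41 and -0.29. Of the pyruvate dehydrogenase genes and kinases 7 were tested, 3 higher and 4 lower, with Dlat and Pdk1 at the smallest p apart from Pdk4. Pdk4 passed the filter through AF, where it was high, so that nothing is read from its p.

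Pdk4, the kinase that shuts pyruvate dehydrogenase in fasting, showed how much single livers differed. It was at 0.40, 0.27 and 0.24 FPKM (PF), 0.76, 24.0 and 1.67 (AF) and 3.53, 11.5 and 5.59 (AF with MNA). All alcohol-fed livers were above the PF livers, and AF replicate 2 stood far above the rest. Its differences, 1.91 for AF against PF and 2.47 for AF with MNA against PF on the log2 scale, are given as a description with no test, since Pdk4 lay under the filter of 0.5 FPKM in PF and passed it through the other group. Igfbp1 had the same leading liver, with 8.27, 14.6 and 7.99 FPKM (PF), 36.6, 161 and 12.6 (AF) and 18.5, 25.5 and 15.9 (AF with MNA) (AF against PF 2.00, SE 0.84, adjusted p = 0.431). AF replicate 2, which also had the lowest median of all genes averaging 0.5 FPKM or more (2.35 FPKM, against 2.56 to 2.77 in the other 8 libraries), combined the highest Igfbp1, Pdk4, Irs2 and Foxo1 of the 9 livers with the lowest Pklr, Slc2a2 and Irs1, while its G6pc (64.7) and Pck1 (721) were not the highest. With each library scaled to the same median, AF against PF gave -0.79 for Pklr, -0.31 for Slc2a2, -0.14 for Irs1, 0.56 for Irs2 and 0.35 for Foxo1 on the log2 scale.

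Of the 11 tested FOXO1 target genes that are no members, 4 were higher and 7 lower in AF (median -0.07), and Sesn3, a sestrin, had the smallest p (-0.41, adjusted p = 0.399), followed by Igfbp1 and Angptl4 (0.41, adjusted p = 0.473). In insulin and glucagon signalling 8 of 20 tested genes were higher and 12 lower (median -0.09), led by Gsk3a (0.29, adjusted p = 0.408), Foxo4 (-0.31) and Grb14 (-0.39). An unadjusted p under 0.05 was found for 1 of 11 FOXO1 targets in AF against PF, 0 of 11 in AF with MNA against AF and 6 of 11 in AF with MNA against PF, beside 11.7%, 5.22% and 14.5% of all genes tested. The 6 were mixed in direction, with Igfbp1, Pdk4 and Angptl4 higher and Sesn1, Sesn3 and Bcl6 lower. For the signalling genes the same counts were 1 of 20, 2 of 19 and 4 of 18, and none of either list had an adjusted p under 0.05. Of 19 tested transcriptional regulators 9 were higher and 10 lower (median -0.07). Among them Txnip, which is known to respond to glucose through ChREBP like Pklr, was higher (23.4, 24.8 and 34.8 FPKM (PF), 42.1, 72.8 and 46.6 (AF) and 52.5, 73.0 and 45.8 (AF with MNA)), with 0.92 for AF against PF (SE 0.25, adjusted p = 0.269). Onecut1 (-1.05, SE 0.31, adjusted p = 0.293) and Nr4a1 (0.38, adjusted p = 0.399) came next.

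One gene of these lists passed an adjusted p of 0.05 in any comparison. Cyp4a14, a fatty acid hydroxylase induced through PPARα in fasting, measured 62.6, 45.7 and 28.9 FPKM (PF), 97.4, 234 and 195 (AF) and 233, 233 and 324 (AF with MNA). It rose in AF with MNA against PF by 2.55 on the log2 scale (SE 0.30, adjusted p = 0.0395 in limma). The adjusted p was 0.0790 with every gene above 0 tested and 0.221 with a replicate block. With 1 library left out the log2 fold change stayed between 2.26 and 2.80, and the adjusted p was 0.0453 without PF replicate 1 and between 0.0564 and 0.126 without any 1 of the others. Under the other alternatives run it was between 0.0337 and 0.0432. Of the 9 tested fasting-induced genes 6 were higher in AF than in PF (median 0.38) and 8 in AF with MNA than in PF (median 0.71), and 9 were higher in AF with MNA than in AF (median 0.56). Of 11 tested clock genes 2 were higher and 9 lower in AF (median -0.23), while of 12 tested in each other comparison 10 were higher in AF with MNA than in AF (median 0.25) and 8 higher than in PF (median 0.16). Of 4 tested immediate early genes 2 were higher in AF than in PF, with none past an adjusted p of 0.05.

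**Figure D5:**
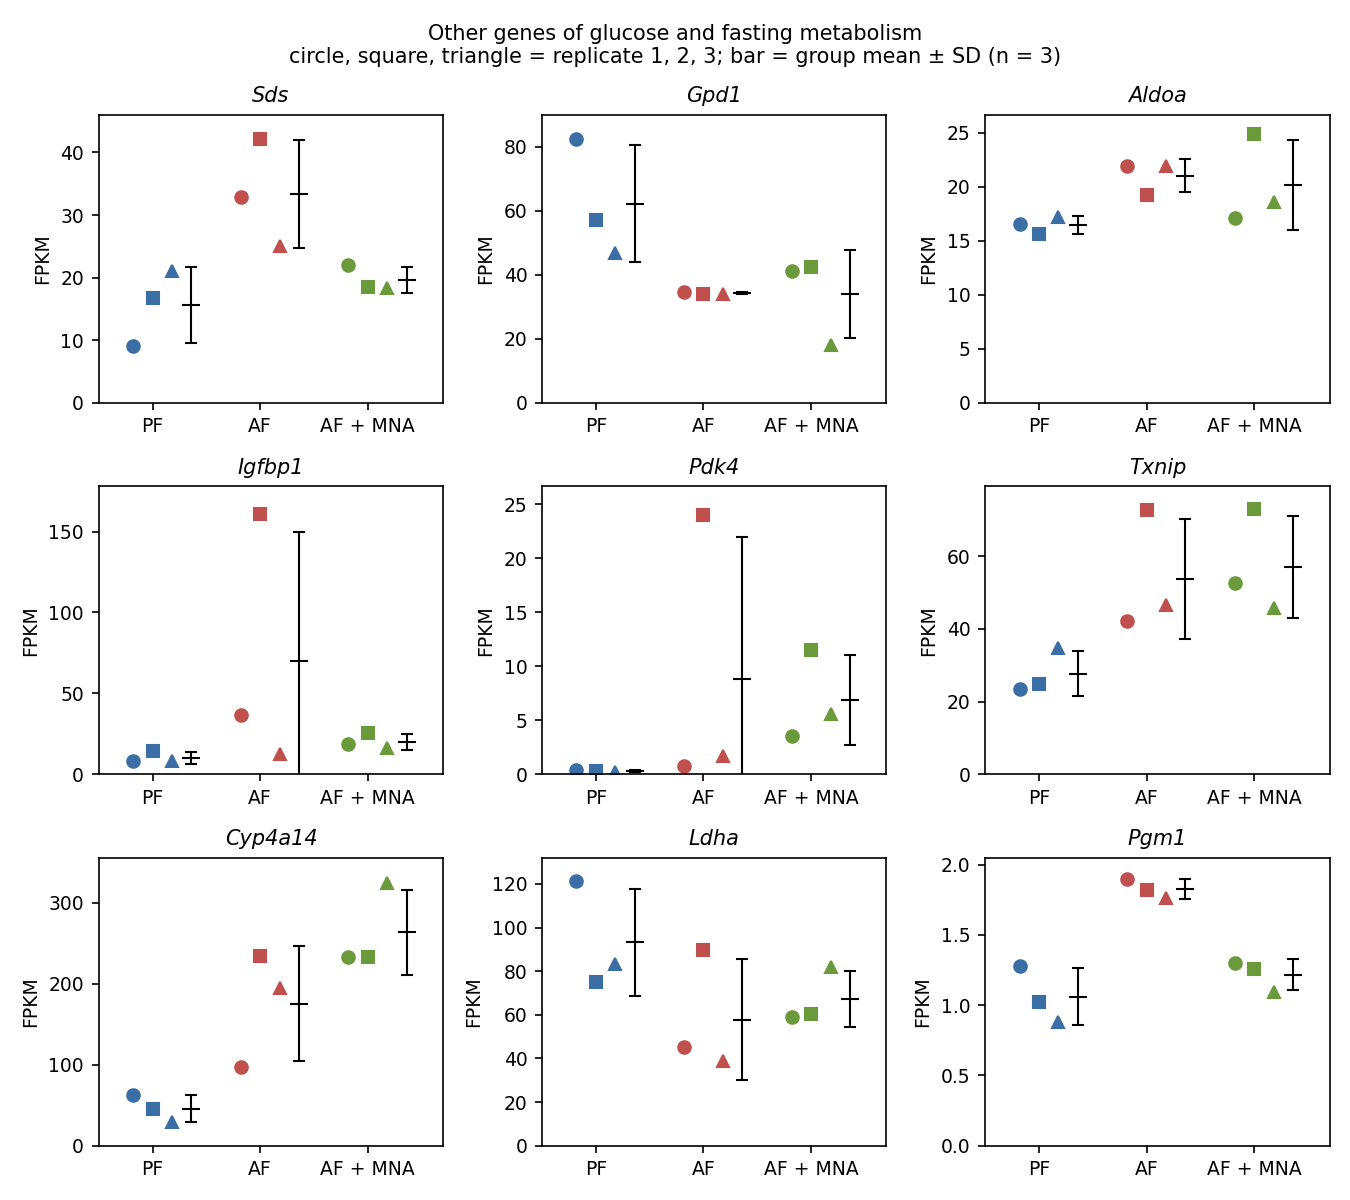
FPKM (vertical axes, linear, starting at 0; the SD bars of Igfbp1 and Pdk4 in AF are drawn down to 0 only) of 9 genes outside the set in each liver, with group mean ± SD. AF replicate 2 stands above the other livers for Igfbp1 (161) and Pdk4 (24.0), and Sds and Pgm1 are highest in AF.

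For each member the genes with the most similar pattern over the 9 livers were taken from all genes that averaged 1 FPKM or more and were never at 0, as a description. Pklr was followed most closely by Hcn3 (r = 0.987), whose annotation overlaps the end of Pklr on the opposite strand, and by Kdm4c (0.981). Pck1 resembled Vapa (0.970) and Fes (0.960), Slc2a2 resembled Farp1 (0.966) and Lin7a (0.952), and Irs1 resembled Dedd (0.963) and Gm38226 (0.956). Fbp1 was closest to Hccs (0.956) and Ppie (0.942), Foxo1 to Minpp1 (0.953) and Dnaja2 (0.906), and G6pc to Eif2b2 (0.937) and Exosc9 (0.889). Pcx, with its narrow range, was closest to Pik3r1 (0.913), a regulatory subunit of the kinase below the insulin receptor adaptors, and to Rhog (0.912), and Irs2 was closest to Tox4 (0.893) and 0610040J01Rik (0.892). With 9 points and so many genes, values of this size are found for each member. Rhog stood at 6.03 and 5.42 FPKM in PF replicates 1 and 3 and at or below 0.32 elsewhere, with a Spearman's rho to Pcx of 0.68.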

How the data were processed

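Ribosomal RNA-depleted, strand-specific paired-end libraries of mouse liver were grouped by the sample labels, 3 per group. The authors deposited FPKM values of genes and lncRNA transcripts from StringTie, version 1.3.4 in the submitters' processing notes, together with the signal (mean coverage) of lncRNA transcripts, and circRNA count values, which are back-splice junction reads without normalization. The genome build is not given in the sources used here, but 7708 of 7879 known lncRNA transcripts have the same start and end in GENCODE M21 (GRCm38).

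The log2(FPKM + 1) of every gene that averaged 0.5 FPKM or more (lncRNA transcripts 0.1) in the 6 libraries of a comparison was fitted with limma 3.58.1 (R 4.3.3, intensity trend) with Benjamini-Hochberg adjustment, and fold changes on that scale understate those of low genes. The labels do not say how replicates were bred or housed, so p-values measure the spread between these animals. The Irs2 to Irs1 ratio and correlations were tested by exact permutation (scipy 1.17.1, two-sided). Named were the 9 members, in each list every gene with an adjusted p under 0.05 or otherwise the 3 with the smallest p in AF against PF, and the 2 genes most like each member. Some genes that this rule names, and a planned ratio, are not reported here, while the list counts include every tested gene. The members and lists were chosen with earlier results of these data known. Alternatives were a pseudocount of 0.1, other filters (any value above 0, 2 FPKM), median scaling, no trend, all 9 libraries in the fit, a replicate block and leaving out each library. Same-numbered libraries did not deviate together (correlation of deviations between -0.08 and 0.061), so they were not treated as pairs.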

Additional observations from a re-analysis of the deposited data

How the results depend on the processing

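The counts of members past an adjusted p of 0.05 and past the threshold of the methods were 0 in each comparison under every alternative run, the replicate block included (0 of 9 members). The direction of a member's log2 fold change held under the pseudocount, filter, scaling, trend, pooled and block alternatives, and turned only when 1 library was left out. In AF against PF it then ranged from -0.10 to 0.83 for G6pc, -0.12 to 0.66 for Foxo1 and -0.43 to 0.078 for Irs1. In AF with MNA against AF it ranged from -0.046 to 0.83 for Pklr and -0.35 to 0.14 for Slc2a2. In AF with MNA against PF it ranged from -0.37 to 0.18 for G6pc, -0.26 to 0.081 for Pck1, -0.40 to 0.25 for Foxo1 and -0.16 to 0.47 for Irs2. The cause was not tested. With 1 library left out, the difference in the log2 ratio of Irs2 to Irs1 ranged from 0.27 to 1.62 in AF against PF, from -1.55 to -0.20 in AF with MNA against AF and from -0.36 to 0.46 in AF with MNA against PF (0.85, -0.78 and 0.072 with all libraries).

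Over all genes, the number past an adjusted p of 0.05 in AF against PF was 40, with 18 under the replicate block, 25 with any value above 0, 86 with all 9 libraries in the fit and between 25 and 47 with 1 library left out. It was 6 in AF with MNA against AF (0 with all 9 libraries, 1 under the block, 2 with either other filter, 12 without AF with MNA replicate 3, 13 without AF replicate 2), and 53 in AF with MNA against PF (0 under the block, 22 with any value above 0, between 24 and 47 with 1 library left out). The threshold of the methods was met by 527, 242 and 477 genes, by 1183, 676 and 1105 with any value above 0, and by 265, 81 and 228 of those of at least 2 FPKM, and by 367 in AF with MNA against AF without AF replicate 3. No library correlated best with its own number in another group (0 of 9). FPKM without reads leaves the depth behind each gene unknown, and for Foxo1, Irs1 and Irs2, under 10 FPKM, the pseudocount shrinks differences most.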
